A study of Mus musculus with 18 samples.

Results

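A set of 9 interferon-inducible genes was followed through the brains of Fmr1CRE and wild-type mice at postnatal day 25. They were the guanylate-binding protein genes Gbp2, Gbp3, Gbp7 and Gbp9, the immunity-related GTPase genes Irgm1 and Igtp, the tetratricopeptide repeat genes Ifit1 and Ifit3, and the transcription factor gene Irf7. These 9 of the 53468 genes in the count table were chosen by name with earlier results from the counts of the same 18 libraries known. Their levels, genotype differences, region differences and co-variation are therefore given as a description, and the counts of calls among them support nothing. All 9 passed the filter on low counts in every comparison.

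The study asked whether a single-base change in a conserved regulatory element near Fmr1 alters gene expression in the brain. Poly(A)-selected RNA was sequenced from dissected forebrain, midbrain and hindbrain of 3 Fmr1CRE knock-in mice and 3 wild-type (WT) mice of the same litter, which gave 18 libraries, 1 for each region of each mouse. Fmr1CRE mice, labelled as Fmr1 mutants, carried the change in their germline, introduced by CRISPR/Cas9 on a C57BL/6 background, and no treatment is given for either group. The sources used here do not say which of several established lines the sequenced mice came from, nor, for these libraries, the sex of the mice.

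Interferons are secreted proteins, and those of type I are released when a cell senses viral or other foreign nucleic acid. Interferons bind receptors on the same and neighbouring cells. Kinases of the JAK family then activate STAT proteins, which enter the nucleus and switch on a large set of target genes. Type I interferon acts chiefly at the interferon-stimulated response element (ISRE), and interferon gamma at the gamma-activated site (GAS). Guanylate-binding proteins and immunity-related GTPases are large GTPases that act against microbes living inside the cell, IFIT proteins bind foreign RNA and limit its translation, and IRF7 amplifies the production of type I interferon. In the uninfected brain the same genes are expressed at a low basal level.

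RefSeq promoters, 250 bases before to 50 bases after a start site on GRCm38.p6, were held for 8 of the 9 genes. ISRE letters read GAAA, NN and GAAA in a row on either strand, with N for any base. They stood in a promoter of 7 of these 8 genes, beside 3.99% of all 27025 genes with a promoter. Of all 32851 promoters of that length, 3.44% held them. The search for GAS letters, TTCNNNGAA, found them in the promoters of Gbp7 and Igtp, beside 8.3% of all promoters. The windows below are shown because the genes were expressed at low levels in all 18 libraries and share these letters. Since the genes were chosen by name as interferon-inducible, the share with ISRE letters is not independent of the choice. Capitals mark the ISRE and GAS letters, each window is written 5′ to 3′ on the strand of its gene, and in Gbp3 and Irgm1 a pair of ISRE matches overlaps.
Gbp2: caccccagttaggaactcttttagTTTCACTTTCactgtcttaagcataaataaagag
Gbp3: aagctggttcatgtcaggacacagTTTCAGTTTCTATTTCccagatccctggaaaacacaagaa
Gbp7: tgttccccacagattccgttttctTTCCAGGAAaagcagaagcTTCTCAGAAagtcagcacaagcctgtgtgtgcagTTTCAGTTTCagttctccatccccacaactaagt
Irgm1: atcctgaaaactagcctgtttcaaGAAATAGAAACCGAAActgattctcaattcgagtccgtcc
Igtp: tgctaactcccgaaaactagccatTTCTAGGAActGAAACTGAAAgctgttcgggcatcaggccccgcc
Ifit1: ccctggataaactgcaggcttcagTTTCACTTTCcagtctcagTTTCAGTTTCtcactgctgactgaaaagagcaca
Ifit3: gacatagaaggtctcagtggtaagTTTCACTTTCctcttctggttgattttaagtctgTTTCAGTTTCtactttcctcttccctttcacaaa
They lie at chr3:142620580-142620637 for Gbp2, chr3:142559975-142560038 for Gbp3, chr3:142530206-142530316 for Gbp7, chr11:48871411-48871474 for Irgm1, chr11:58199487-58199555 for Igtp, chr19:34640761-34640837 for Ifit1, chr19:34583349-34583440 for Ifit3. The matches in Gbp2, Gbp3, Gbp7, Ifit1 and Ifit3 were on the strand opposite to the gene, so the ISRE capitals there begin with TTTC. In Gbp7 and Igtp a GAS match precedes the ISRE match. No ISRE or GAS letters were in the 300 bases held for Irf7, which says only that these letters are not in this window. A match is a description of the sequence and was not tested as a binding site. Among the other genes of the interferon pathway, 32 of 83 with a promoter held ISRE letters, or 38.6%, and 5 of 6 other interferon-inducible GTPase genes did.

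The genes lie in 6 places on GRCm38. Gbp7 (chr3:142530342-142550149), Gbp3 (chr3:142560026-142573209) and Gbp2 (chr3:142620602-142638008) follow each other on the plus strand of chromosome 3, and Gbp9 (chr5:105077630-105139539) lies on the minus strand of chromosome 5. Irgm1 (chr11:48861968-48871683, minus strand) and Igtp (chr11:58199556-58207591, plus strand) are far apart on chromosome 11. Ifit3 (chr19:34583531-34588731) and Ifit1 (chr19:34640871-34650009) are close together on the plus strand of chromosome 19, and Irf7 (chr7:141262706-141266481) is on the minus strand of chromosome 7. All are protein-coding and the counts are of spliced transcripts. Some of their sequence is shared with relatives, which limits how reads can be split. Of the 31-base stretches of Ifit3, 61.8% also occur in Ifit3b, and 15.9% of those of Igtp occur in Irgm2. For Gbp9, 18.3% occur in other genes, chiefly Gbp8 and Gbp6. Irf7 reads were spread over many annotated transcripts, none with more than 22.7% of the estimated reads, whereas nearly all estimated reads of Gbp2, Ifit1 and Ifit3 fell on a single transcript each.

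The libraries held 22455512 to 28061185 counts, and the 9 genes had between 23 and 804 counts in a library. Levels are given as CPM, the count of a gene brought to a common library size, after TMM scaling over the 18 libraries. Fmr1 itself, the gene beside the edited element, lay between 63.5 and 78.8 CPM in the 9 Fmr1CRE libraries and between 51.1 and 83.4 CPM in the 9 WT libraries, ranges that overlap. Region markers separated forebrain from hindbrain. The summed CPM of 5 forebrain markers was 218 to 292 in forebrain and 6.83 to 12.3 in hindbrain, and that of 5 hindbrain markers was 178 to 378 in hindbrain and at most 4.57 in forebrain. The 5 midbrain markers summed to 36.5 to 72.5 CPM in midbrain, 17.6 to 26.9 in hindbrain and 4.08 to 16.4 in forebrain. Midbrain libraries also held forebrain markers, at 126 to 243 CPM, and hindbrain markers, at 35.4 to 95.3 CPM. The forebrain markers thus overlapped between midbrain and forebrain libraries, which limits comparisons of these regions. In a bulk tissue, fewer cells of a type and less RNA per cell cannot be told apart.

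The forebrain libraries labelled replicate 3 stand apart. Genes were taken that differed by over 1 on the log2 scale, the same way in midbrain and hindbrain, between Fmr1CRE replicate 3 and WT replicate 3. Of the 96 of these that also differed by over 1 in forebrain, 69.8% did so in the opposite direction. In the other 14 pairs of mice this share was 30.9% to 57.9%. The mean level of the 9 interferon-inducible genes turned in the same way. Fmr1CRE replicate 3 exceeded WT replicate 3 by 0.58 in midbrain and by 0.28 in hindbrain on the log2 scale, and was lower by that measure in forebrain, with a difference of -0.70. This turn of the mean was not particular to that pair. Fmr1CRE replicate 2 minus WT replicate 3 was -0.723, 0.588 and 0.124 in forebrain, midbrain and hindbrain. WT replicate 1 minus WT replicate 3 was -0.736, 0.236 and 0.634, while some other pairs kept 1 direction. Whether labels were exchanged was not tested.

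Ifit3 was the most abundant of the genes per length in every region. In hindbrain it had a mean of 13.1 ± 5.74 CPM per kilobase (SD, n = 6), followed by Irgm1 at 5.9 ± 1.27 and Irf7 at 4.12 ± 1.87 CPM per kilobase. The place of Irf7 rests on a pooled effective length of 917 bases, which takes in annotated transcripts as short as 87. Its transcript with the most estimated reads had 2031, and a longer length would give Irf7 a lower value. In forebrain Ifit3 had 6.73 ± 3.58 CPM per kilobase and Irgm1 5.02 ± 1.08, and Gbp2 was lowest at 1.15 ± 0.216 CPM per kilobase. The spread between mice was of the same order as the gap between neighbours in this ranking, so the order of Ifit3 and Irgm1 in forebrain is within the SD of Ifit3. Because Ifit3 shares most of its sequence with Ifit3b, the sum of both genes is the firmer value, and it was 9.71 ± 2.0 CPM in Fmr1CRE forebrain and 19.0 ± 9.32 CPM in WT forebrain (SD, n = 3).

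The tetratricopeptide repeat genes and Irf7 differed most between hindbrain and the other regions, with hindbrain highest. Ifit3 ranged from 4.94 to 16.8 CPM in forebrain (median 7.08), from 5.90 to 17.1 CPM in midbrain (median 12.6) and from 7.46 to 29.8 CPM in hindbrain (median 18.4). Ifit1 ranged from 2.13 to 5.17 CPM in forebrain (median 2.49), from 2.04 to 5.77 CPM in midbrain (median 3.86) and from 3.06 to 9.83 CPM in hindbrain (median 5.66). Irf7 ranged from 1.01 to 3.56 CPM in forebrain (median 2.30), from 1.13 to 3.19 CPM in midbrain (median 1.94) and from 1.64 to 5.64 CPM in hindbrain (median 3.72). In each of these genes the regions overlapped, and the lowest hindbrain mouse lay below the highest forebrain mouse. Forebrain was lower than hindbrain by 0.97 on the log2 scale for Ifit3, with a log2 fold change of -0.97 (SE 0.35). For Ifit1 it was -0.95 (SE 0.32), and for Irf7 -0.70 (SE 0.34). Between midbrain and hindbrain the log2 fold change of Irf7 was -0.92 (SE 0.35).

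The GTPase genes differed less from hindbrain and not all in the same direction. Gbp9 came near Irf7 in size, with a log2 fold change from hindbrain to forebrain of 0.67 (SE 0.33). Between forebrain and midbrain, Gbp9 at 0.59 (SE 0.33) and Igtp at 0.44 (SE 0.18) had the largest differences. Gbp2 averaged 2.33 ± 0.435 CPM in forebrain, 2.43 ± 0.38 in midbrain and 3.09 ± 0.66 in hindbrain (SD, n = 6). Irgm1 averaged 8.67 ± 1.86 CPM in forebrain, 8.13 ± 1.38 in midbrain and 10.2 ± 2.19 in hindbrain. Gbp3 averaged 5.49 ± 1.35 CPM in forebrain, 5.18 ± 1.25 in midbrain and 6.77 ± 1.62 in hindbrain. For these genes forebrain and midbrain lay within an SD of each other and hindbrain was above both. Gbp7 was highest in forebrain, at 6.87 ± 1.24 CPM, beside 5.84 ± 0.669 in midbrain and 5.52 ± 0.887 in hindbrain. Igtp was lowest in midbrain, at 2.88 ± 0.375 CPM, and its forebrain level of 3.89 ± 0.746 lay beside 3.72 ± 0.991 in hindbrain. The log2 fold change of Igtp from hindbrain to forebrain was 0.05 (SE 0.18), and it turned to -0.0879 with total counts alone as the scale, to -0.0905 without WT replicate 3 and to -0.0741 without both mice of number 3. Scaling by total counts alone moved the median of all genes by -0.14 in that comparison. Gbp9 averaged 5.01 ± 2.31 CPM in forebrain, above midbrain at 3.34 ± 1.4 and hindbrain at 3.14 ± 1.28, and its forebrain mean joined genotypes that did not overlap.

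**Figure D1:**
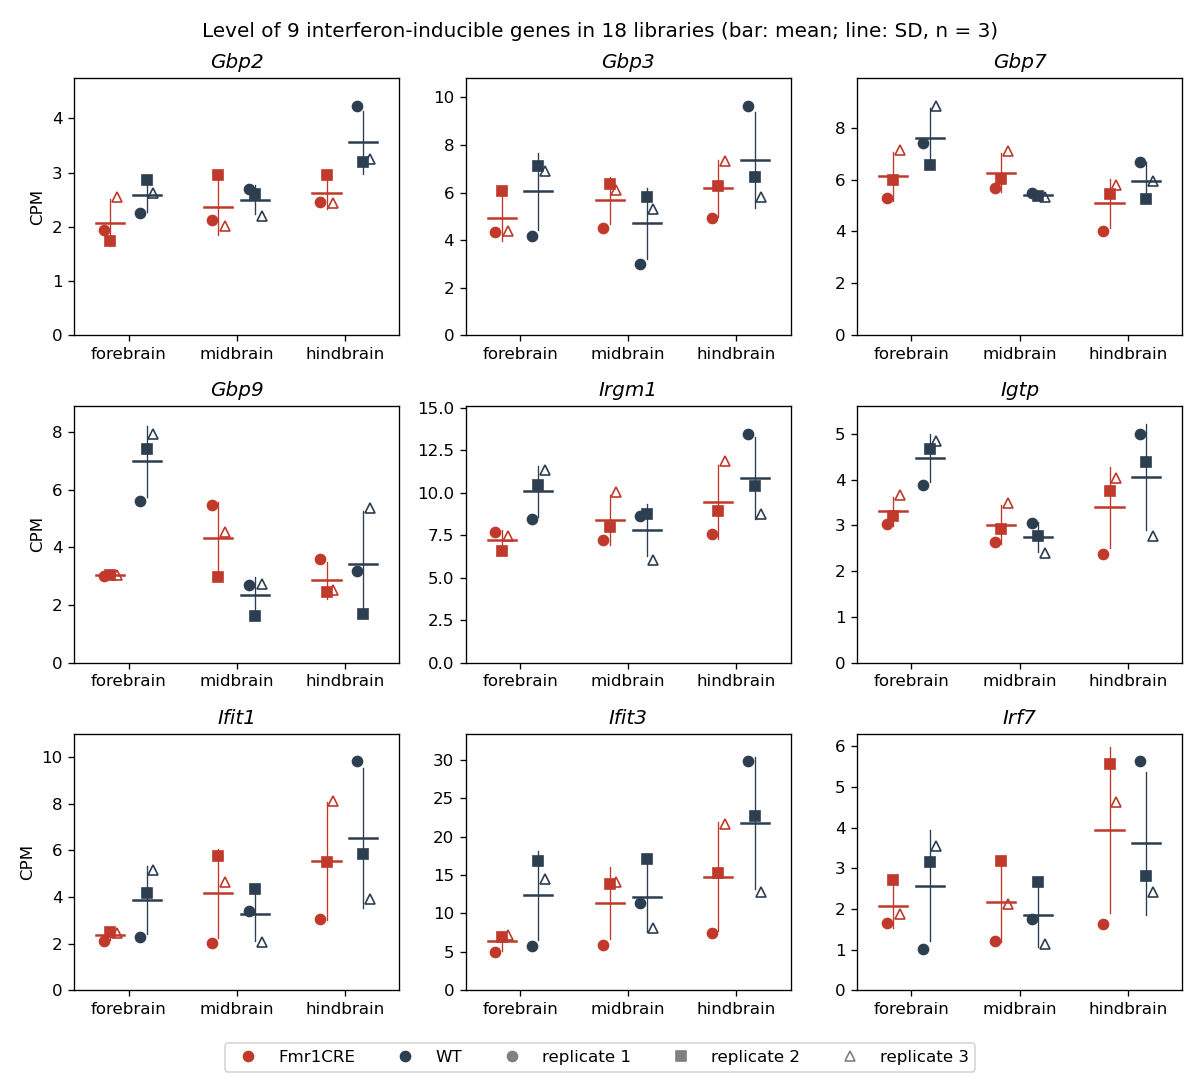
CPM of each gene (vertical axes, starting at 0) in the 3 regions, with 1 point per library. Red marks Fmr1CRE and dark blue WT, circles, squares and open triangles mark replicates 1, 2 and 3, bars are means and lines are SD (n = 3). Gbp9 in forebrain lies between 3.00 and 3.05 CPM in Fmr1CRE and between 5.59 and 7.95 CPM in WT, and the highest hindbrain value of Ifit3, 29.8 CPM, is that of WT replicate 1.

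Called counts between regions were read against all genes. In edgeR's quasi-likelihood test with Benjamini-Hochberg adjustment, Gbp2, Ifit1 and Ifit3, 3 of 9, passed an adjusted p of 0.05 between forebrain and hindbrain, all lower in forebrain, beside 52.6% of all genes tested. Irf7 alone, 1 of 9, passed between midbrain and hindbrain, beside 50.4% of all genes. None of 9 passed between forebrain and midbrain, beside 20.4%, and 1 had an unadjusted p under 0.05 there. DESeq2 called 4, 2 and 0 of the 9 in these comparisons, beside 10408, 9987 and 4648 of all 19313 genes tested. Since the genes were chosen on these counts, nothing is read from these shares. The forebrain to hindbrain calls rested on WT replicate 1, whose hindbrain was highest in 8 of the 9 genes. Without that mouse 0 of 9 passed, and the log2 fold changes were -0.67 for Ifit3 and -0.69 for Ifit1. Leaving out both mice of number 3 left 1 of 9, Ifit1, as did leaving out Fmr1CRE replicate 2, and leaving out Fmr1CRE replicate 3 left 1, Gbp2. Ifit1 and Ifit3 alone passed without Fmr1CRE replicate 1 or WT replicate 2 and with no filter on low counts. The call of Irf7 between midbrain and hindbrain was also lost, to 0 of 9, without WT replicate 1, WT replicate 3, Fmr1CRE replicate 3 or both mice of number 3, and with no filter on low counts. With the mouse as a block, 3 of 9 passed, with Gbp7 in the place of Gbp2.

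Gbp9 had the largest genotype difference of the 9 genes, in forebrain and in midbrain. In forebrain Gbp9, a guanylate-binding protein gene of the chromosome 5 group, had 3.00, 3.05 and 3.03 CPM in Fmr1CRE replicates 1, 2 and 3 and 5.59, 7.42 and 7.95 CPM in WT replicates 1, 2 and 3. The Fmr1CRE mice were alike and all lay below the WT mice. The log2 fold change was -1.17 (SE 0.21, 95% interval -1.65 to -0.70), and -1.05 without both mice of number 3. In midbrain the order was reversed, with 5.46, 2.96 and 4.54 CPM in Fmr1CRE and 2.70, 1.63 and 2.74 CPM in WT. The 3 Fmr1CRE mice all lay above the WT mice, with a log2 fold change of 0.87 (SE 0.31, 95% interval 0.16 to 1.58). In hindbrain the genotypes overlapped, with 3.59, 2.45 and 2.53 CPM in Fmr1CRE and 3.19, 1.68 and 5.38 CPM in WT. The hindbrain log2 fold change was -0.26 (SE 0.41) and turned to 0.22 without WT replicate 3 and to 0.29 without both mice of number 3.

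Relatives that share sequence with Gbp9 were read beside it. Gbp6 had 1.5, 2.76 and 1.87 CPM in Fmr1CRE forebrain and 3.74, 4.72 and 5.71 CPM in WT forebrain, which did not overlap either. In midbrain Gbp6 had 5.25, 5.54 and 6.62 CPM in Fmr1CRE and 4.97, 6.20 and 2.91 CPM in WT, which overlapped. Summed over Gbp9, Gbp6, Gbp8, Gbp10 and Gbp4, the forebrain level was 6.85 ± 0.636 CPM in Fmr1CRE and 14 ± 1.11 CPM in WT (SD, n = 3), a ratio of 0.491 with no overlap. The same sum in midbrain was 12.1 ± 1.5 CPM in Fmr1CRE and 9.02 ± 1.92 CPM in WT, and these overlapped. The forebrain difference thus remained in the sum, while the midbrain groups no longer separated.

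In forebrain the other genes were also lower on average in Fmr1CRE. All 9 log2 fold changes were negative, with a median of -0.405 beside 0.00 for all genes, except that Irf7 turned to 0.04 without WT replicate 3 and to 0.11 without both mice of number 3. No setting of the scale changed these signs. Without both mice of number 3 the median was -0.401, and the log2 fold changes were -0.885 for Ifit3, -0.433 for Ifit1, -0.353 for Irgm1, -0.401 for Igtp, -0.426 for Gbp2, -0.0712 for Gbp3 and -0.259 for Gbp7. Several cell type marker lists also had negative median log2 fold changes in forebrain. They were -0.312 for pericytes, -0.305 for endothelial cells, -0.238 for meningeal fibroblasts, -0.197 for astrocytes and -0.108 for microglia. In these lists 0 genes were called by edgeR or DESeq2 and 3 had an unadjusted p under 0.05. Not all of the 12 lists are named, and the medians of the others are not given. By summed CPM the highest forebrain library was an Fmr1CRE mouse for border macrophage, lymphocyte, neutrophil, oligodendrocyte, neuron, choroid plexus and blood markers. It was an Fmr1CRE mouse for pericyte markers too, and WT replicate 3 for microglia, endothelial and astrocyte markers. The part of these cell types in the levels of the 9 genes was not tested. Ifit3 had 4.94, 6.92 and 7.24 CPM in Fmr1CRE and 5.81, 16.8 and 14.5 CPM in WT. WT replicate 1 lay among the Fmr1CRE mice and the other WT mice far above them, with a log2 fold change of -0.93 (SE 0.37). Ifit1 had 2.13, 2.51 and 2.47 CPM in Fmr1CRE and 2.29, 4.19 and 5.17 CPM in WT, again with WT replicate 1 low, and a log2 fold change of -0.68 (SE 0.32). Irgm1 had 7.70, 6.59 and 7.46 CPM in Fmr1CRE and 8.45, 10.5 and 11.4 CPM in WT. Igtp had 3.04, 3.21 and 3.66 CPM in Fmr1CRE and 3.87, 4.68 and 4.85 CPM in WT. In neither GTPase gene did the genotypes overlap, and the log2 fold changes were -0.445 (SE 0.18) for Irgm1 and -0.405 (SE 0.20) for Igtp. For Gbp2, Gbp3, Gbp7 and Irf7 the genotypes overlapped and the log2 fold changes lay between -0.285 and -0.266.

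In midbrain the log2 fold change was positive for 7 of 9 genes, with a median of 0.21, and Ifit3 and Gbp2 were at -0.10 and -0.08. Without both mice of number 3 the midbrain median was 0.01 and 5 of 9 were positive, and Irgm1 and Igtp turned negative. Midbrain signs also turned when a single mouse was left out for Gbp2, Ifit3, Irf7 and Irgm1. Gbp7 had 5.66, 6.03 and 7.10 CPM in Fmr1CRE midbrain and 5.49, 5.39 and 5.34 CPM in WT, without overlap, and a log2 fold change of 0.21 (SE 0.15). In hindbrain 8 of 9 were negative, with a median of -0.26, which was -0.549 without both mice of number 3 and -0.0832 without WT replicate 1. Hindbrain Irf7 was at 0.11 (SE 0.49) and turned negative without any of 4 mice. Ifit1 at -0.25 (SE 0.43) turned positive in hindbrain without Fmr1CRE replicate 1 or WT replicate 1. Gbp2 had 2.45, 2.96 and 2.44 CPM in Fmr1CRE hindbrain and 4.23, 3.20 and 3.24 CPM in WT, without overlap, and a log2 fold change of -0.45 (SE 0.23). Ifit3 in hindbrain had 7.46, 15.3 and 21.6 CPM in Fmr1CRE and 29.8, 22.7 and 12.8 CPM in WT, which overlapped widely.

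**Figure D2:**
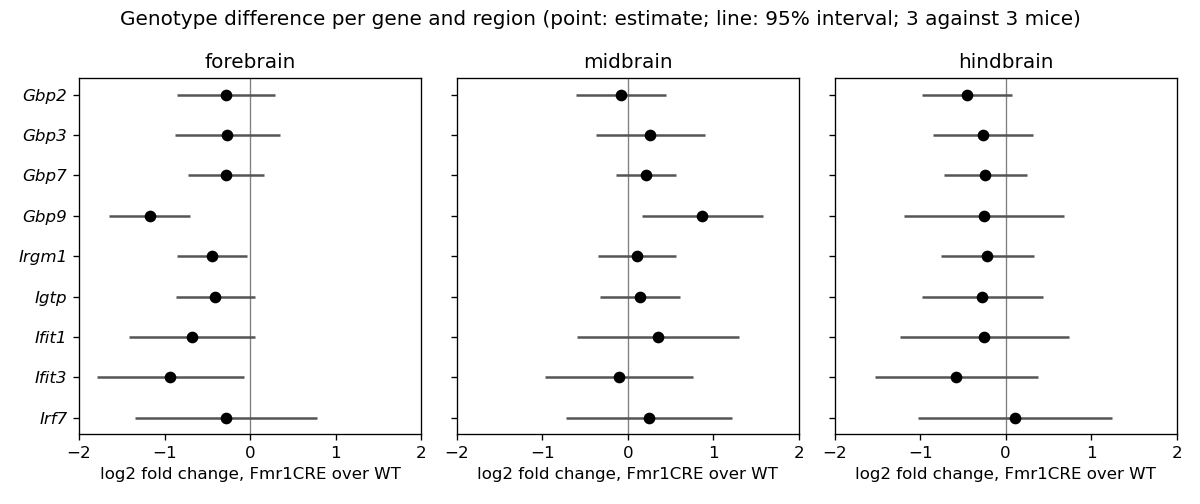
Log2 fold change of Fmr1CRE over WT for each gene (rows) in forebrain, midbrain and hindbrain, with points for the edgeR estimate and lines for the 95% interval from 3 against 3 mice. Every forebrain point lies below 0 and Gbp9 lies at -1.17 in forebrain and at 0.87 in midbrain, while most intervals span 0. The forebrain point of Irf7 moves above 0 without WT replicate 3 or without both mice of number 3.

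Genes whose genotypes did not overlap were counted beside all genes. In forebrain 3 of 9 genes did not overlap, beside 10.3% of all genes tested. In midbrain it was 2 of 9, beside 11.3%, in hindbrain 1 of 9, beside 10.9%, and in the sum of the 3 regions of each mouse 1 of 9, Gbp2, beside 8.08%. By edgeR's adjusted p of 0.05 none of the 9 was called in forebrain or hindbrain, beside 0% of all genes in each. None was called in midbrain, beside 0.00543% of all genes, in the sum of regions, beside 0.00451%, or for a genotype difference that changed between regions, beside 0%. At an unadjusted p under 0.05 there were 3 genes in forebrain, 1 in midbrain, 0 in hindbrain, 0 in the sum and 1 for the change between regions. Over all genes the unadjusted counts were 1002, 1135, 981, 820 and 1535, and DESeq2 called 31, 62, 59, 26 and 52 genes. Of the 9 genes DESeq2 called 1, Gbp9 in forebrain, and none elsewhere. The genes were chosen on these counts and nothing is read from these shares. With the regions of each mouse summed, the log2 fold changes ran from -0.52 (SE 0.30) for Ifit3 to 0.03 (SE 0.31) for Irf7. Those of Gbp2, Gbp9, Igtp, Irgm1 and Ifit1 lay between -0.28 and -0.18, and those of Gbp3 and Gbp7 at -0.12 and -0.10.

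Levels also varied between individual mice within a genotype. The deviation of log2 CPM from the mean of a region was averaged over the 9 genes in each library. Fmr1CRE replicate 1 was low in every region, at -0.39 in forebrain, -0.23 in midbrain, and lowest at -0.54 in hindbrain, and 0, 1 and 1 of its 9 genes lay above the region mean there. In forebrain WT replicates 2 and 3 were high, at 0.44 and 0.53, and WT replicate 1 was low at -0.21. In hindbrain WT replicate 1 was the highest, at 0.52, with 9 of 9 genes above the region mean. In midbrain Fmr1CRE replicates 2 and 3 were highest, both at 0.27, and WT replicate 3 was lowest at -0.32. A mouse that was high in a region was thus not high in all regions. Over the 6 mice Pearson's r of this score was -0.25 between forebrain and midbrain, 0.01 between forebrain and hindbrain and 0.37 between midbrain and hindbrain, with Spearman's rho of -0.09, -0.09 and 0.54. These correlations share mice, and the forebrain ones include the libraries of number 3.

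**Figure D3:**
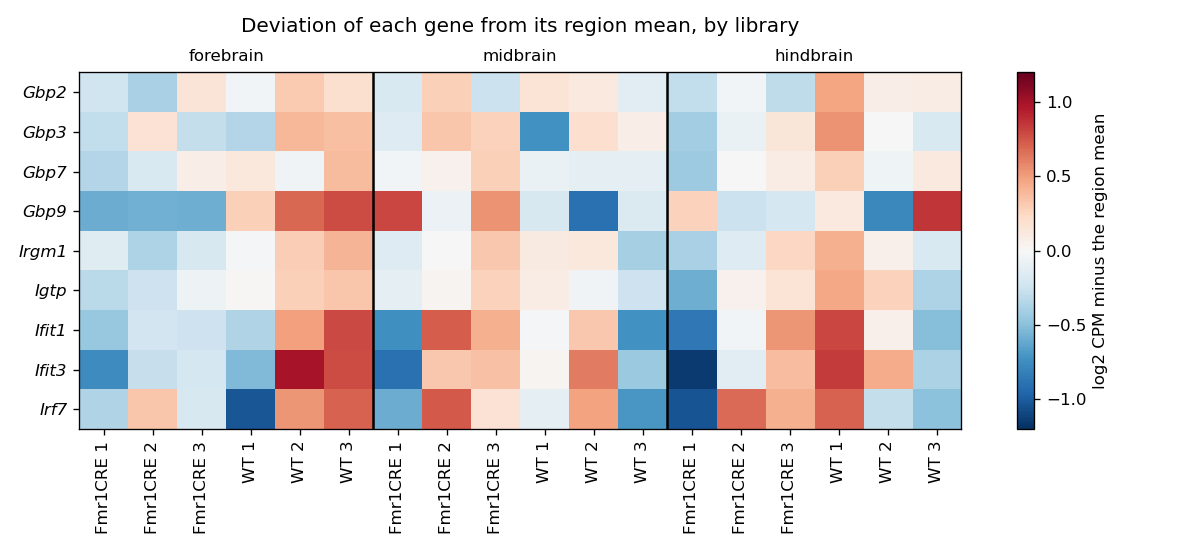
Deviation of log2 CPM from the region mean for each gene (rows) in each library (columns, grouped by region), with red above and blue below the mean. The forebrain columns of WT 2 and WT 3 and the hindbrain column of WT 1 are red for most genes, the columns of Fmr1CRE 1 are blue for most genes, and the row of Gbp9 departs from the others in midbrain and hindbrain.

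Pairs of genes were correlated over the 6 mice of a region, with the points of a pair sharing a library and its depth. The 6 mice include both genotypes and genotype means were not removed, so a genotype difference enters these values. In forebrain all 36 pairs were positive, with a median Pearson's r of 0.77 and a median Spearman's rho of 0.69. In hindbrain the median r was 0.75 (rho 0.60) with 30 of 36 pairs positive, and in midbrain 0.43 (rho 0.49) with 27 of 36 positive. Without the 2 mice farthest from the median score the medians of r were 0.34 in forebrain, 0.38 in midbrain and -0.08 in hindbrain. Leaving out mice by the score of the same genes narrows its range, which tends to lower r. The lower values therefore do not show that the medians rested on those mice. With any single mouse left out the median was 0.678 to 0.819 in forebrain and 0.529 to 0.815 in hindbrain. Leaving out both mice of number 3 gave 0.739 in forebrain, 0.41 in midbrain and, higher, 0.918 in hindbrain. With 6 mice, such values describe these libraries alone.

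Ifit1 and Ifit3, neighbours on chromosome 19, had an r of 0.96 in forebrain, and each was the gene most like the other there. In midbrain Ifit1 was most like Irf7, at 0.97, and in hindbrain most like Irgm1, at 0.97. Igtp and Irgm1 were most alike in midbrain, at 0.93. Gbp9 was the gene that departed. Its r with the mean of the other 8 over the 18 libraries, region means removed, was 0.07, while that of the others ran from 0.57 for Gbp2 to 0.91 for Ifit1. In forebrain Gbp9 had an r of 0.94 with Irgm1 and of 0.93 with Igtp. Gbp9, Irgm1 and Igtp are the genes whose genotypes did not overlap there, so the genotype gap enters both values. Within Fmr1CRE forebrain Gbp9 hardly varied, from 3.00 to 3.05 CPM. In hindbrain the highest r of Gbp9 with any of the 8 was 0.08 and its lowest -0.63.

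**Figure D4:**
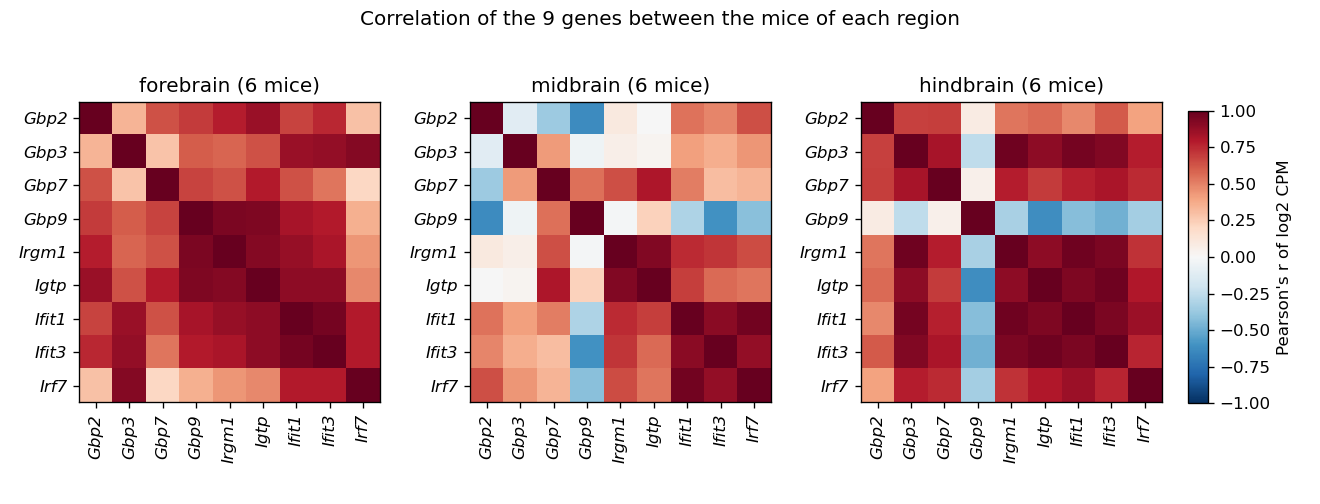
Pearson's r of log2 CPM between each pair of the 9 genes over the 6 mice of forebrain, midbrain and hindbrain, on a colour scale from -1 (blue) to 1 (red). In forebrain every cell is positive, with a median of 0.77, and in hindbrain the row of Gbp9 is the blue one. Genotype means were not removed.

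The 10 genes outside the set that were most like its mean over the 18 libraries, with region means removed, began with Ifit3b, which shares sequence with Ifit3, at an r of 0.91. It was followed by Usp18, which removes ISG15 and restrains interferon signalling, at 0.90, and the oligoadenylate synthetase relative Oasl2 at 0.89. Trim25, a ubiquitin ligase of the RNA sensing pathway, had 0.86, Slc22a18 0.86, and B2m, the light chain of class I antigen presentation, 0.84. Then came Hist1h2be at 0.83, Gbp6 at 0.82, Clybl at 0.81 and Isg15, a ubiquitin-like modifier, at 0.81. Of these 10, 7 belonged to the interferon pathway lists and Slc22a18, Hist1h2be and Clybl to none. The median r over 20354 other genes was 0.02 and the 99th percentile 0.63. Genotype means were left in for these values and for the likeness of the pathway lists below. Usp18 ranged from 0.469 to 2.58 CPM in forebrain and from 0.924 to 3.64 CPM in hindbrain, and Oasl2 from 1.67 to 6.65 CPM and from 2.70 to 7.94 CPM.

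The rest of the pathway was read from 7 lists of 113 genes, all of them in the table. Ligands were not detectable at this depth. Of 10 interferon genes 7, among them Ifnb1, had 0 counts in all 18 libraries and the other 3 had at most 1 count in a library. A count of 0 allows up to 3 counts, or 0.107 to 0.134 CPM in these libraries, for counting error only. The receptor genes were well expressed, with medians in forebrain, midbrain and hindbrain of 40.6, 41.7 and 41.9 CPM for Ifnar1, a type I receptor chain, and of 45.3, 43.9 and 38.6 CPM for Ifngr2, a chain of the interferon gamma receptor. Of the 11 receptors, kinases and STATs, 2 had an r above 0.5 with the mean of the 9 genes.

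Likeness to the 9 genes was then read list by list, as a description. Of 39 other antiviral effectors that passed the filter, 35 had a positive r with the mean of the 9 genes and 18 exceeded 0.5, with a median of 0.43. Of 13 other interferon-inducible GTPases 4 exceeded 0.5, with a median of 0.27, and Irgm2 had 0.78. Of 16 antigen presentation genes 3 exceeded 0.5 and the median was 0.26. The medians were 0.20 for receptors, kinases and STATs, 0.15 for regulatory factors and inhibitors, with 1 of 9 above 0.5, and 0.19 for sensors and adaptors, with 1 of 11. Among all other genes 3.33% exceeded 0.5. Not every effector followed, and Cmpk2, a mitochondrial nucleotide kinase induced by interferon, had an r of -0.23.

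**Figure D5:**
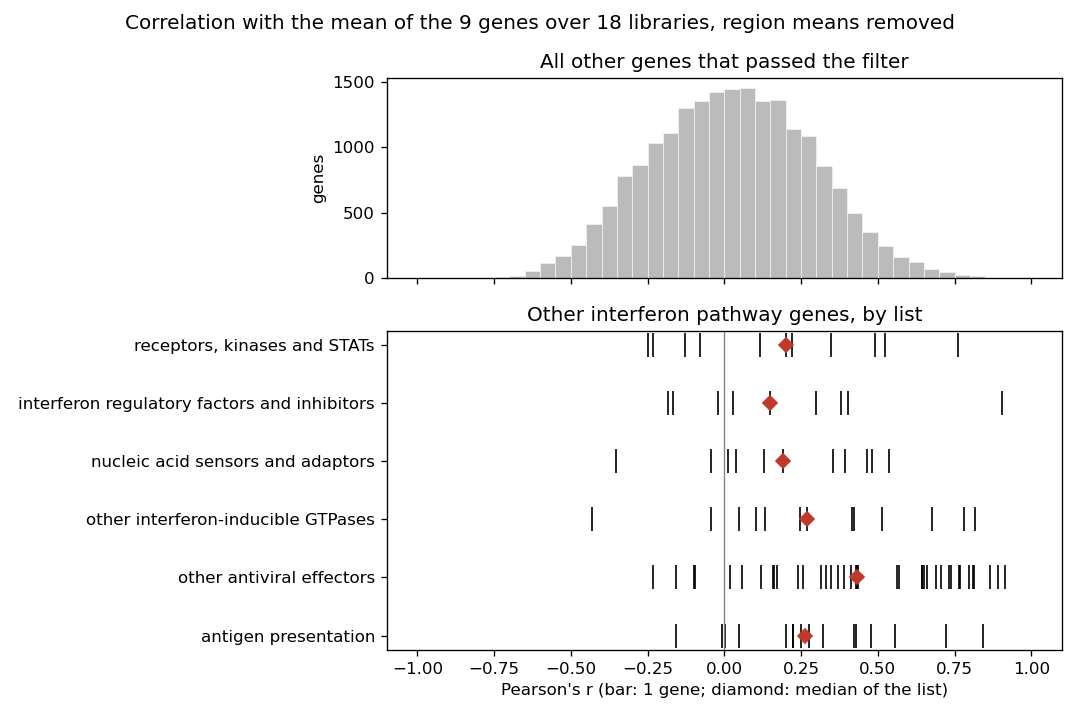
Pearson's r with the mean of the 9 genes over 18 libraries after region means were removed, as a histogram of all other genes that passed the filter (top, number of genes per bin) and as 1 bar per gene for 6 pathway lists (bottom, diamonds for medians). The histogram centres near 0, with a median of 0.02, and the other antiviral effectors have a median of 0.43.

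Pathway genes outside the set were tested between regions. Of 96 tested between forebrain and hindbrain, 26 passed an adjusted p of 0.05, or 27.1% beside 52.6% of all genes, and 19 of the 26 were higher in hindbrain. The median log2 fold change of the 96 was -0.11 beside -0.01 for all genes. Between midbrain and hindbrain 21 of 96 passed, 17 of them higher in hindbrain, or 21.9% beside 50.4%. Between forebrain and midbrain 6 of 96 passed, 3 in each direction, or 6.25% beside 20.4%. Without WT replicate 1 the counts were 16, 17 and 5, and without both mice of number 3 they were 22, 15 and 5.

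Class I antigen presentation genes were among those called. H2-D1, a class I heavy chain, averaged 31.8 CPM in forebrain, rose to 46.3 in midbrain, and was highest in hindbrain at 68.4. The log2 fold change from hindbrain to forebrain was -1.11 (SE 0.11) (edgeR adjusted p = 4.77e-08). H2-K1 averaged 16.6 CPM in forebrain and 27.6 in hindbrain (log2 fold change -0.74, SE 0.16, edgeR adjusted p = 0.000831). B2m averaged 60.6 and 82.3 CPM (log2 fold change -0.45, SE 0.11, edgeR adjusted p = 0.00189). All 5 of the 16 antigen presentation genes called between forebrain and hindbrain were higher in hindbrain, H2-Ab1 among them at -0.89 (SE 0.36). Of the 38 other antiviral effectors 8 were higher in hindbrain than in forebrain and 2 lower, with Ifitm1 at -1.24 (SE 0.24), Ifi27l2a at -1.13 (SE 0.45) and Isg20 at -1.0 (SE 0.26). Of all genes tested in that comparison 52.6% were called, a larger share than in either list. Herc6, the effector called in the other direction most strongly, fell from 12.4 CPM in forebrain to 5.55 in hindbrain (log2 fold change 1.15, SE 0.18, edgeR adjusted p = 2.06e-05).

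Genes upstream of the 9 were divided between the regions. Of 11 receptors, kinases and STATs, 2 were called, or 18.2% beside 52.6% of all genes, and both were lower in forebrain than in hindbrain, with Ifnlr1, a type III interferon receptor chain, at -1.52 (SE 0.34). Without WT replicate 1 the list had 0 called. Of 9 regulatory factors and inhibitors, 3 were called, or 33.3%. Irf8, a factor of microglia and other myeloid cells, was higher in forebrain at 6.91 CPM than in hindbrain at 3.14 (log2 fold change 1.13, SE 0.16). Irf1 was also higher in forebrain (0.54, SE 0.17), while Usp18 was lower (-1.13, SE 0.47). Of 10 sensors and adaptors tested, 4 were called, or 40.0%. Tlr9, Tmem173 and Cgas were higher in forebrain than in hindbrain and Dhx58 was lower. Of 12 other interferon-inducible GTPases, 2 were called, or 16.7%. Gbp10 and Gbp6 were lower in forebrain than in hindbrain, at 0.0538 and 3.38 CPM beside 0.721 and 5.59. Each of these shares lay below the 52.6% of all genes.

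No pathway gene was called by genotype. Of 93, 94 and 96 tested in forebrain, midbrain and hindbrain and 102 in the sum of regions, edgeR called 0, and 8, 3, 11 and 9 had an unadjusted p under 0.05. DESeq2 called 0 in each region and 1 in the sum. The medians of the log2 fold change were -0.14 in forebrain, 0.06 in midbrain, -0.17 in hindbrain and -0.09 in the sum, with those of all genes between -0.01 and 0.00. The other interferon-inducible GTPases had a median of -0.26 in forebrain and 0.20 in midbrain.

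Cell type markers were read beside these levels. The summed CPM of 9 microglia markers was 396 to 548 in forebrain, 302 to 371 in midbrain and 212 to 261 in hindbrain, so the regions did not overlap and their order was the reverse of that of Ifit1 and Ifit3. The 5 oligodendrocyte markers ran in the same order as Ifit1 and Ifit3, from 10800 to 14000, 14400 to 17300 and 24700 to 35700 CPM, also without overlap. Medians of the 5 astrocyte markers were 1390, 1400 and 1920 CPM. Cx3cr1, a microglial receptor, had medians of 64.6, 43.3 and 22.7 CPM. Of the 7 lymphocyte markers, Cd3e, Cd3g, Cd8a and Nkg7 had at most 10 counts in any library. Cd4, which accounted for most of that list in forebrain, had medians of 28.1, 3.52 and 0.0378 CPM. The 5 neutrophil markers summed to at most 5.44 CPM in any library. Meningeal fibroblast markers, 4 genes, summed to 24.1 to 50.8 CPM in forebrain, 50.2 to 92.5 in midbrain and 44.2 to 96.4 in hindbrain. Blood markers, 5 globin and heme genes, summed to 506 to 1550, 442 to 1020 and 1060 to 2710 CPM.

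Some marker lists moved with the libraries that were high or low for the 9 genes, and others moved against them. WT replicate 1 in hindbrain, the highest for 8 of 9 genes, was also the highest there for 4 of 12 marker lists, those of border macrophages, meningeal fibroblasts, choroid plexus and blood, and the lowest for 3, those of microglia, astrocytes and oligodendrocytes. In that library meningeal fibroblast markers summed to 96.4 CPM, beside a hindbrain median of 54.3, and choroid plexus markers to 3210, beside 1380. In forebrain Fmr1CRE replicate 1 was lowest and WT replicate 3 highest for microglia, endothelial and astrocyte markers, as for Ifit1, Gbp7, Igtp and Gbp9. Fmr1CRE replicate 1 was also highest there for 3 of 12 lists, those of neutrophils, choroid plexus and blood. The mean log2 level of the microglia markers had an r of 0.87 with the 9 genes over the 6 forebrain mice, 0.49 in midbrain and -0.08 in hindbrain. That of the meningeal fibroblast markers was 0.76 in forebrain and 0.69 in hindbrain, and 0.26 in midbrain. Astrocyte markers had 0.734 in forebrain, 0.577 in midbrain and -0.815 in hindbrain. Neutrophil markers were negative throughout, at -0.64, -0.787 and -0.488, and neuron markers had 0.416, 0.425 and -0.589. Genotype means were left in for these correlations too. The part of these cells in the levels of the 9 genes was not tested.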

How the data were processed

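Poly(A) RNA of 18 libraries, 3 regions of 3 Fmr1CRE and 3 WT mice, was read as single-end 50-base reads on an Illumina NextSeq. The paper states that the libraries were divided into pools, each run on a single flow cell. Which libraries were in which pool is not given, so a difference between pools could not be taken into account. The authors deposited a table of gene counts and, for each library, expected counts per transcript from Salmon. The submitters' processing notes name Salmon 0.14.0, DESeq2 1.30.1 and mm10, with no role or order. The deposited table of variance-stabilised values was not used. Libraries were grouped by the tissue and genotype in the labels. Total counts were 22455512 to 28061185 per library, and intervals on counts cover counting error only. Rows with no symbol, 105 of 53468, were kept under their identifiers.

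Counts were tested with edgeR 4.0.16 in R 4.3.3 (quasi-likelihood test, TMM scaling, filterByExpr, Benjamini-Hochberg adjustment over all genes, threshold 0.05), with limma 3.58.1 loaded by edgeR. Genotype was fitted within each region and in the sum of each mouse's regions, regions over all 18 libraries. Fits over all 18 libraries took the regions of a mouse as independent unless the mouse was a block. DESeq2 1.42.0, other scales and filters, a replicate block and leaving out mice were alternatives. The fit was tested on simulated data. Deposited expected counts gave effective lengths and transcript shares. The 9 genes and all lists were chosen with earlier results of these data known. The genes named were all 9, the 10 most like their mean, and pathway genes called between regions, by size of the difference within each list, and other genes named were chosen after their values were seen. Libraries with the same number and genotype come from the same mouse, and their correlation across regions ran from -0.17 to 0.18. For 1 gene of the pathway lists, which is counted in the totals, no values of its own are reported here.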

Additional observations from a re-analysis of the deposited data

Results flagged for a closer look

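The genotype difference of Gbp9 stood out because the mice moved in opposite directions in different regions. Its log2 fold change was -1.17 in forebrain, where all 3 Fmr1CRE mice lay below all 3 WT mice, and 0.87 in midbrain, where all 3 lay above. In a test of the difference between regions over all genes, edgeR's adjusted p for Gbp9 was 0.66, so it did not pass. That test took the regions of a mouse as independent, and Gbp9 did not pass with the mouse as a block either. Gbp9 was chosen on these counts, and the value is a description. No library of the 27 groups of 6, 9 genes in 3 regions, lay farther from its neighbours than Dixon's critical value of 0.625 allows.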

How the results depend on the processing

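Counts of all genes called by genotype moved with the tool and with the mice. DESeq2 called 31 (forebrain), 62 (midbrain), 59 (hindbrain), 26 in the sum of regions and 52 for the change between regions, where edgeR called 0, 1, 0, 1 and 0. Leaving out both mice of number 3 gave 3 in midbrain, 1 in hindbrain, 0 in the sum, 131 for the change between regions and 2485 between forebrain and midbrain, where 3940 were called. Without a filter on low counts there were 11 in midbrain, 11 in hindbrain, 4 in the sum and 7 for the change between regions. A single fit of 18 libraries called 1 gene each in forebrain and hindbrain and 0 in midbrain, and a filter of at least 10 counts in every library called 0 in midbrain. With the replicate number as a block the sum gave 0. Same-numbered mice of the genotypes correlated between -0.12 and 0.07. Regions of the same mouse correlated between -0.17 and 0.18, so such values cannot tell whether same-numbered mice were paired. The cause of these changes was not tested.

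Leaving out each mouse in turn gave 0 to 5 calls in hindbrain, 0 to 4 in midbrain, 0 in the sum of regions and 0 to 4 for the change between regions. For the median r of the 36 pairs the lowest and highest were 0.678 and 0.819 (forebrain), 0.291 and 0.573 (midbrain), and 0.529 and 0.815 (hindbrain). Spearman's correlation gave 0.686 in forebrain and 0.60 in hindbrain, and leaving out both mice of number 3 gave 0.918 in hindbrain. Summing Gbp9 and Ifit3 with related genes and leaving Gbp9 out of the co-variation were chosen after seeing the data. Without Gbp9 the medians were 0.768, 0.522 and 0.795. Counts as low as 23 in a library limit what a single mouse can show.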
